A study of Homo sapiens with 24 samples.

Results

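DCVC-pretreated, LPS-stimulated macrophage-like cells were compared with cells that received LPS alone, across all named genes. DCVC, which stands for S-(1,2-dichlorovinyl)-L-cysteine, is a metabolite of the solvent trichloroethylene. The comparison takes 12 of the 24 RNA libraries of the series, chosen by their titles, with 6 DCVC_LPS and 6 LPS libraries that carry the replicate letters A to F. It covers 13900 of 38735 named genes, those with a mean normalized count of at least 10 over the 24 libraries. All cells were THP-1, an established human monocytic leukaemia line, turned into macrophage-like cells with 100 nM of the phorbol ester PMA for 24 h. DCVC_LPS cells were then given 5 µM DCVC for 24 h and, after the medium was changed, 100 ng/mL lipopolysaccharide for 4 h. LPS cells were given medium in place of DCVC and the same lipopolysaccharide. The other libraries, 6 from DCVC cells and 6 from Control cells, had the same differentiation and no LPS, and their levels are given beside the main comparison as context. Whether each library is a culture of its own is not stated in the labels. The p-values therefore weigh differences against the spread between these libraries, which may be technical. One cell line stands for all macrophages here, and 1 dose and 1 time of each agent were analysed.

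Lipopolysaccharide of gram-negative bacteria is sensed by TLR4 together with CD14. The adaptor MyD88 carries the signal to the transcription factor NF-kB and to MAP kinases, which switch on cytokines and chemokines, while a second adaptor leads to interferon-beta, whose secretion turns on a wave of interferon-stimulated genes through JAK kinases and STAT factors. DCVC reacts with thiols, directly and after cleavage by cysteine conjugate lyases, and thiol-reactive compounds are sensed by KEAP1, which then releases NRF2, the factor that drives glutathione, thioredoxin and haem-degrading enzymes.

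Levels are normalized counts, that is, whole reads of a gene divided by a factor for each library. Where 3 values stand in a row, they are the lowest, the median and the highest of the 6 libraries of a group. Changes are DCVC_LPS minus LPS on the scale log2(normalized count + 1), with their standard error, from limma with 6 libraries a group, and p-values are adjusted by the method of Benjamini and Hochberg over the 13900 genes. A gene is said to have risen or fallen where its adjusted p was under 0.05. Reads in named genes numbered 20352552 to 26232127 in DCVC_LPS libraries and 19985317 to 30107819 in LPS libraries.

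Of the 13900 genes, 4633 (33.3%) were higher and 5478 (39.4%) lower in DCVC_LPS cells than in LPS cells. At least 2-fold changes were found for 1656 (11.9%) raised and 2158 (15.5%) lowered genes on this scale. The 6 values of DCVC_LPS cells lay entirely above those of LPS cells for 3108 genes (22.4%) and entirely below for 4084 (29.4%). These shares are the background against which each gene list below is read. Libraries of letters A and B resembled each other, as did C and D. E and F did so less: the chi-square per degree of freedom between their read counts was 20.7 in DCVC_LPS and 21.4 in LPS libraries. It was 3.56 and 4.34 for A with B, and 3.94 and 4.13 for C with D. Among DCVC_LPS libraries E was closer to D (16.2) than to F. Within 1 such pair of letters at a time, between 3982 and 4495 genes were raised and between 5185 and 5383 lowered.

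The split between rises and falls depends on the scale. The normalized values of named genes summed to between 21416800 and 22050100 per DCVC_LPS library, against 28309700 to 30270200 per LPS library, a ratio of means of 0.742. Rescaling every library to the same total moved the median change of all genes by 0.43 on the log2 scale, to 0.36 in place of -0.07. On that scale 7578 genes (54.5%) were raised and 3051 (21.9%) lowered, so rises made up 71.3% of the calls in place of 45.8%. At least 2-fold changes then numbered 2985 rises and 1345 falls. Of the falls on the deposited scale, 55.7% fell with equal totals too, 432 genes fell on the deposited scale and rose with equal totals, and every gene that rose on the deposited scale also rose with equal totals. Which scale is closer to the amount of RNA per cell was not measured, and in bulk RNA fewer cells of a type and less RNA per cell cannot be told apart. For lists where the split depends on the scale, both counts are given. List counts without LPS are read against 3820 raised (27.5%) and 4478 lowered (32.2%) of the 13900 genes, or 6412 and 2790 with equal totals. Differences between the DCVC effects with and without LPS are read against 3053 positive (22.0%) and 3297 negative (23.7%) ones, or 4600 and 2232 with equal totals.

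Single libraries stood apart in interferon-induced genes. The DCVC_LPS library of letter F was the highest of its group for 45 of 45 interferon-stimulated genes, against 21.2% of all tested genes, and the DCVC_LPS library of letter E was the lowest for 35. The LPS library of letter F was the highest of its group for 28 of the 45, and the LPS library of letter E the lowest for 38, against 19.0% of all tested genes. What set these libraries apart was not tested, and results on these genes are given with and without them.

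**Figure D1:**
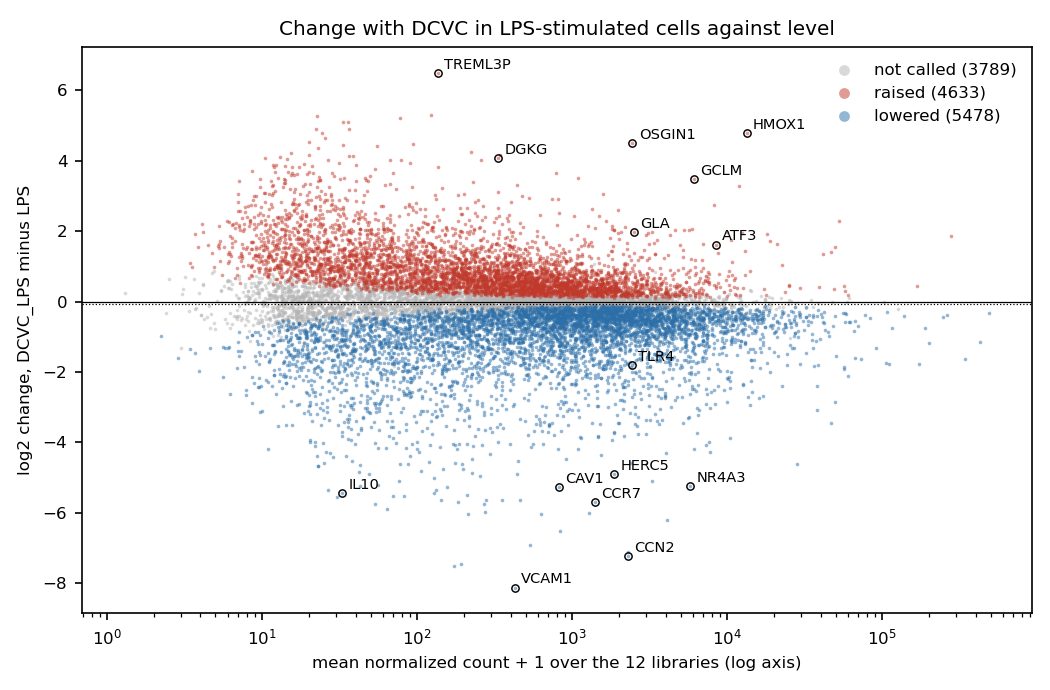
Change with DCVC in LPS-stimulated cells (y axis, log2 of DCVC_LPS over LPS) against the mean normalized count + 1 over the 12 libraries (x axis, log scale) for 13900 genes. Red points were raised (4633), blue points lowered (5478) and grey points not called (3789), with the dotted line at the median of all genes. Falls of more than 5 log2 units were found at low counts (IL10) and high counts (NR4A3, CCN2), and HMOX1 is the labelled rise with the highest count.

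Receptors and adaptors that sense LPS and other microbial products were more often lower than higher. Of 29 tested pattern receptors and adaptors, 17 fell and 7 rose, with a median change of -0.46; with equal totals 14 fell and 11 rose. TLR4, the LPS receptor itself, had 826, 1010.5 and 1645 in DCVC_LPS cells, against 3516, 3727 and 4006 in LPS cells. The groups did not overlap, with a log2 change of -1.81 ± 0.14 and an adjusted p of 1.88e-11. CD14, the coreceptor that hands LPS to TLR4, had 16.3, 30.9 and 45.9 in DCVC_LPS cells, against 109, 162 and 268 in LPS cells, and fell by 2.50 log2 units (adjusted p = 1.60e-08). MYD88, the adaptor shared by most toll-like receptors, had 669.9, 845 and 1564 in DCVC_LPS cells, against 3832, 4904 and 5247 in LPS cells, which gave a log2 change of -2.40 ± 0.13 and an adjusted p of 1.00e-13. The highest DCVC_LPS value of MYD88 came from the library of letter F and stood well above the other 5.

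TLR8, an endosomal sensor of single-stranded RNA, had 1.67, 4.38 and 8.6 in DCVC_LPS cells, against 211, 225 and 399 in LPS cells, with a log2 change of -5.64 ± 0.28 and an adjusted p of 1.09e-14. Its change without LPS, DCVC minus Control, was -5.38 ± 0.28, and the difference between the DCVC effects did not pass the test (-0.26 ± 0.39, adjusted p = 0.617). RIPK2, the kinase that signals for the intracellular sensors NOD1 and NOD2, fell by 2.36 log2 units (adjusted p = 2.49e-14). Among the members that rose, IRAK4, the kinase directly behind MyD88, changed by 0.80 ± 0.11, and TIRAP, the bridge between TLR4 and MyD88, by 0.65 ± 0.10, both with adjusted p under the threshold (1.00e-06 and 3.73e-06). TLR5, the flagellin receptor, rose too, with 9.38, 15.4 and 22.6 in DCVC_LPS cells, against 1.48, 3.98 and 4.77 in LPS cells.

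NF-kB genes and their inhibitors were mostly lower. Of 18 tested, 15 fell and 1 rose, with a median of -0.77; with equal totals 8 fell and 2 rose. REL, the c-Rel subunit, had 2804, 3298 and 3914 in DCVC_LPS cells, against 8230.5, 10122 and 12206 in LPS cells, with a log2 change of -1.61 ± 0.11 and an adjusted p of 4.44e-12. NFKB1, the p105/p50 subunit, changed by -1.07 ± 0.08, and TNIP1, an inhibitor that works with the deubiquitinase A20, by -1.13 ± 0.08. All 3 sets of values were separate between the groups. NFKBIA, which encodes the inhibitor IkB-alpha and is switched on by NF-kB itself, fell by 0.90 log2 units on the deposited scale (adjusted p = 0.00187), and with equal totals its change was -0.47 and did not pass the test (adjusted p = 0.0767). IKBKG, the regulatory subunit of the IkB kinase, rose, at 0.31 ± 0.07 (adjusted p = 2.27e-04), with overlapping groups and an adjusted p of 0.217 within letters C/D alone.

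Feedback regulators were split. Among 15 MAP kinase phosphatases and mRNA decay factors, 10 fell and 2 rose (5 fell and 4 rose with equal totals). DUSP2, a nuclear phosphatase of ERK and p38, had 317, 489 and 573 in DCVC_LPS cells, against 2999.8, 3989 and 4202 in LPS cells, without overlap and with a log2 change of -3.06 ± 0.19 and an adjusted p of 7.69e-13. ZFP36L1, which destabilises AU-rich messengers of cytokines, rose instead, with 3587, 4205 and 4813 in DCVC_LPS cells, against 1269.6, 1358 and 2068 in LPS cells, with a log2 change of 1.45 ± 0.11 and an adjusted p of 2.27e-11. DUSP6, an ERK phosphatase, rose by 0.37 ± 0.08 (adjusted p = 1.49e-04).

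The immediate early genes, transcription factors switched on within minutes to hours of a stimulus, moved in both directions: 13 of 22 fell and 5 rose (10 and 6 with equal totals). NR4A3, an orphan nuclear receptor, had 223, 274 and 518 in DCVC_LPS cells, against 7803, 11880 and 12065 in LPS cells, with a log2 change of -5.24 ± 0.32 and an adjusted p of 4.95e-13. Without LPS the same gene was higher with DCVC, at 41.9, 80.7 and 207 in DCVC cells against 9.05, 18.1 and 27.3 in Control cells. ATF3, a stress-induced repressor of inflammatory promoters, was higher in both settings, and with LPS it had 10553, 11017 and 19176 in DCVC_LPS cells, against 3266, 3797 and 6671 in LPS cells, with a log2 change of 1.61 ± 0.17 and an adjusted p of 1.12e-08. FOS, an AP-1 subunit, had 257, 470.5 and 536 in DCVC_LPS cells, against 154, 217 and 249.9 in LPS cells, with a log2 change of 1.02 ± 0.14 and an adjusted p of 8.17e-07, and it fell without LPS (-0.56 ± 0.14, adjusted p = 0.00184). The 6 values of each of these 3 genes in DCVC_LPS cells were separate from those in LPS cells.

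Cytokines and chemokines mostly fell: 23 of 27 tested cytokines and 17 of 20 chemokines were lower, with median changes of -2.72 and -1.79. None of either list was called higher. With equal totals 21 cytokines and 14 chemokines were lower, and 1 of each list was higher. Without LPS 10 cytokines were lower and 4 higher (6 and 5 with equal totals), and 5 chemokines were lower and 2 higher (4 and 4 with equal totals). Of all 13900 genes, 4478 were lower and 3820 higher without LPS (2790 and 6412 with equal totals). IL10, the main anti-inflammatory cytokine of macrophages, fell as well, with 0, 0 and 3.23 in DCVC_LPS cells, against 32, 67.5 and 78.8 in LPS cells. In DCVC_LPS cells 4 of the 6 libraries held no IL10 read, and the 6 LPS values lay far above all of them, with a log2 change of -5.44 ± 0.36 and an adjusted p of 2.28e-12. CXCL8, the neutrophil attractant, had 217430, 258900 and 304780 in DCVC_LPS cells, against 415620, 603610 and 734210 in LPS cells. The groups did not overlap. Its change of -1.15 ± 0.50 was near the threshold (adjusted p = 0.0406) and did not pass it with equal totals (-0.72, adjusted p = 0.184). In 13 of the 18 fits without a letter or a library it did not pass either, with an adjusted p of up to 0.0886 without letter A. The spread in the fit of 24 libraries includes the libraries without LPS, where CXCL8 ranged over 3869 to 18848 in DCVC cells and 1144 to 10395 in Control cells. With the 12 compared libraries alone its adjusted p was 2.75e-06, with the letters as a block 0.00350, and it passed within each of the 3 pairs of letters. CCL22, a chemokine that attracts T cells of the Th2 and regulatory types, had 141, 197 and 376 in DCVC_LPS cells, against 1140, 1618 and 1806 in LPS cells, with a log2 change of -2.84 ± 0.18 and an adjusted p of 1.09e-12, whereas it was higher with DCVC in the absence of LPS (1.97 ± 0.18, adjusted p = 2.04e-09).

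Interferon-stimulated genes fell almost as a whole. Of 45 genes, all of them tested, 44 fell, 43 of these at least 2-fold, and none rose, with a median of -2.68; with equal totals 43 fell and none rose. Without LPS 11 of the 45 were lower with DCVC and 4 were higher, and with equal totals 7 were lower and 11 higher. Of all 13900 genes, 4478 were lower and 3820 higher without LPS, and with equal totals 2790 and 6412. The difference between the DCVC effects passed the test with a negative sign for 43, on either scale. Over all 13900 genes it did so for 3297, and for 2232 with equal totals. HERC5, the ligase that attaches the ubiquitin-like protein ISG15 to other proteins, had 66.4, 102 and 345 in DCVC_LPS cells, against 1889, 3939 and 4162 in LPS cells, with a log2 change of -4.90 ± 0.27 and an adjusted p of 9.31e-14. STAT2, a subunit of the interferon-activated factor ISGF3, had 874, 902 and 2259 in DCVC_LPS cells, against 4773, 5829.5 and 8059 in LPS cells, with a change of -2.47 ± 0.16. IFITM3, a membrane protein that blocks virus entry, changed by -2.42 ± 0.15. The groups did not overlap for HERC5, STAT2 or IFITM3. Without the DCVC_LPS library F, which stood apart in these genes, 45 of the 45 fell with a median of -2.96. In the fits without the DCVC_LPS library E, the LPS library E or the LPS library F, 44 fell in each, with medians of -2.54, -2.77 and -2.65.

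A second group of interferon targets, the guanylate-binding proteins and other genes induced most by interferon-gamma, had 19 of 22 members lower and 1 higher, with a median of -1.85. With equal totals 19 were lower and 2 higher. Without the DCVC_LPS libraries F or E the median was -1.97 or -1.80, and without the LPS libraries E or F it was -1.88 or -1.81; 20 fell without the LPS library E and 19 in the other 3 fits. GBP4, a large GTPase, had 268, 331 and 840.2 in DCVC_LPS cells, against 4171, 8184 and 8881 in LPS cells, with a log2 change of -4.30 ± 0.22 and an adjusted p of 1.97e-14. WARS1, a tryptophanyl-tRNA synthetase that interferon-gamma induces, had 2451, 2742 and 3888 in DCVC_LPS cells, against 12585, 15963 and 21326 in LPS cells, with a log2 change of -2.50 ± 0.11 and an adjusted p of 1.27e-15. The groups were separate for both. Among 26 receptors and kinases of the JAK-STAT pathway 19 fell and 2 rose (13 fell and 7 rose with equal totals), and without the LPS library F 1 rose. JAK2, a kinase behind the interferon-gamma receptor, changed by -2.15 ± 0.13.

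Promoters of 3 lowered genes and 1 raised gene are shown here because they carry the binding motifs of the factors named above, and the antioxidant response element is present in 2 of the lowered genes and in the raised one. Each sequence is the 250 bases before the RefSeq start (GRCh38.p14), written 5′ to 3′ on the gene's strand, with matches to 3 motifs in capitals. The motifs were the ISRE core GAAANNGAA, bound by ISGF3 and interferon regulatory factors, the NF-kB consensus, and the antioxidant response element TGACNNNGC, bound by NRF2, on both strands. HERC5 lies on the plus strand and its window is chr4:88456869-88457118. It holds 3 matches to the ISRE core, 2 of them overlapping, and 1 match to the antioxidant response element.
HERC5: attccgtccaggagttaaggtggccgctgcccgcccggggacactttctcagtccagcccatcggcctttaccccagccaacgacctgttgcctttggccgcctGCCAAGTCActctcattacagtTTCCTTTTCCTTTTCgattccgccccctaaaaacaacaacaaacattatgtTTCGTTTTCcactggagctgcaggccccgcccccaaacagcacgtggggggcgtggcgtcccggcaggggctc
CXCL10, an interferon-inducible chemokine, lies on the minus strand and its window is chr4:76023498-76023747, with 1 ISRE core, 2 matches to the NF-kB consensus and 1 to the antioxidant response element; the gene changed by -5.11 ± 0.51.
CXCL10: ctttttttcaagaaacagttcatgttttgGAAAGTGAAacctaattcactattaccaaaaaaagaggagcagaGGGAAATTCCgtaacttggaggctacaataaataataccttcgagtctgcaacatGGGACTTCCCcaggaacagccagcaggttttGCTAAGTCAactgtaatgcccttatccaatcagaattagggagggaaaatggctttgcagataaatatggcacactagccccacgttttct
VCAM1, an adhesion molecule for leukocytes, lies on the plus strand and its window is chr1:100719492-100719741, with 1 NF-kB match and 1 ISRE core.
VCAM1: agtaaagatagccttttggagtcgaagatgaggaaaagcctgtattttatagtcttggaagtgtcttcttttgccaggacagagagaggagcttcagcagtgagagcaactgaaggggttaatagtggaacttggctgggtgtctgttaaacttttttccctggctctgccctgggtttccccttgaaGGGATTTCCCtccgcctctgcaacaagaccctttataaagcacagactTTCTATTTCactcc
GCLM, the modifier subunit of the enzyme that limits glutathione synthesis, lies on the minus strand and its window is chr1:93909431-93909680, with 1 antioxidant response element.
GCLM: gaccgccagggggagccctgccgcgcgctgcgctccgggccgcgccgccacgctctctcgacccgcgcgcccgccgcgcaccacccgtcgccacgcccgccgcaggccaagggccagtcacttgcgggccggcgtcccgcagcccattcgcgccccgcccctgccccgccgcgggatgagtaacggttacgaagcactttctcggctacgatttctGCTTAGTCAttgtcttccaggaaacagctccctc
None of these sites overlaps a match to another of the 5 motifs searched.

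Over all promoters the shares with a match differed by a few percentage points. Promoter windows from 250 bases before to 50 after the start were found for 10687 of the 13900 tested genes. The NF-kB consensus was present in 16.6% of 1587 windows of genes lowered at least 2-fold, 10.3% of 1208 windows of genes raised at least 2-fold and 13.0% of all. The ISRE core was present in 8.51% of lowered, 7.04% of raised and 6.68% of all windows, but in 24 of 34 windows of the interferon-stimulated genes. The antioxidant response element was present in 13.3% of lowered, 16.9% of raised and 15.4% of all windows, in 9 of 34 windows of the NRF2 targets and in 10 of 34 of the interferon-stimulated genes. The GAS motif TTCNNNGAA was present in 6.55% of lowered, 7.29% of raised and 6.37% of all windows, and the AP-1 motif TGANTCA in 6.81%, 6.54% and 4.79%. Sites of the antioxidant response element and of AP-1 overlapped each other in 55 promoters. A match describes the letters and not binding.

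**Figure D2:**
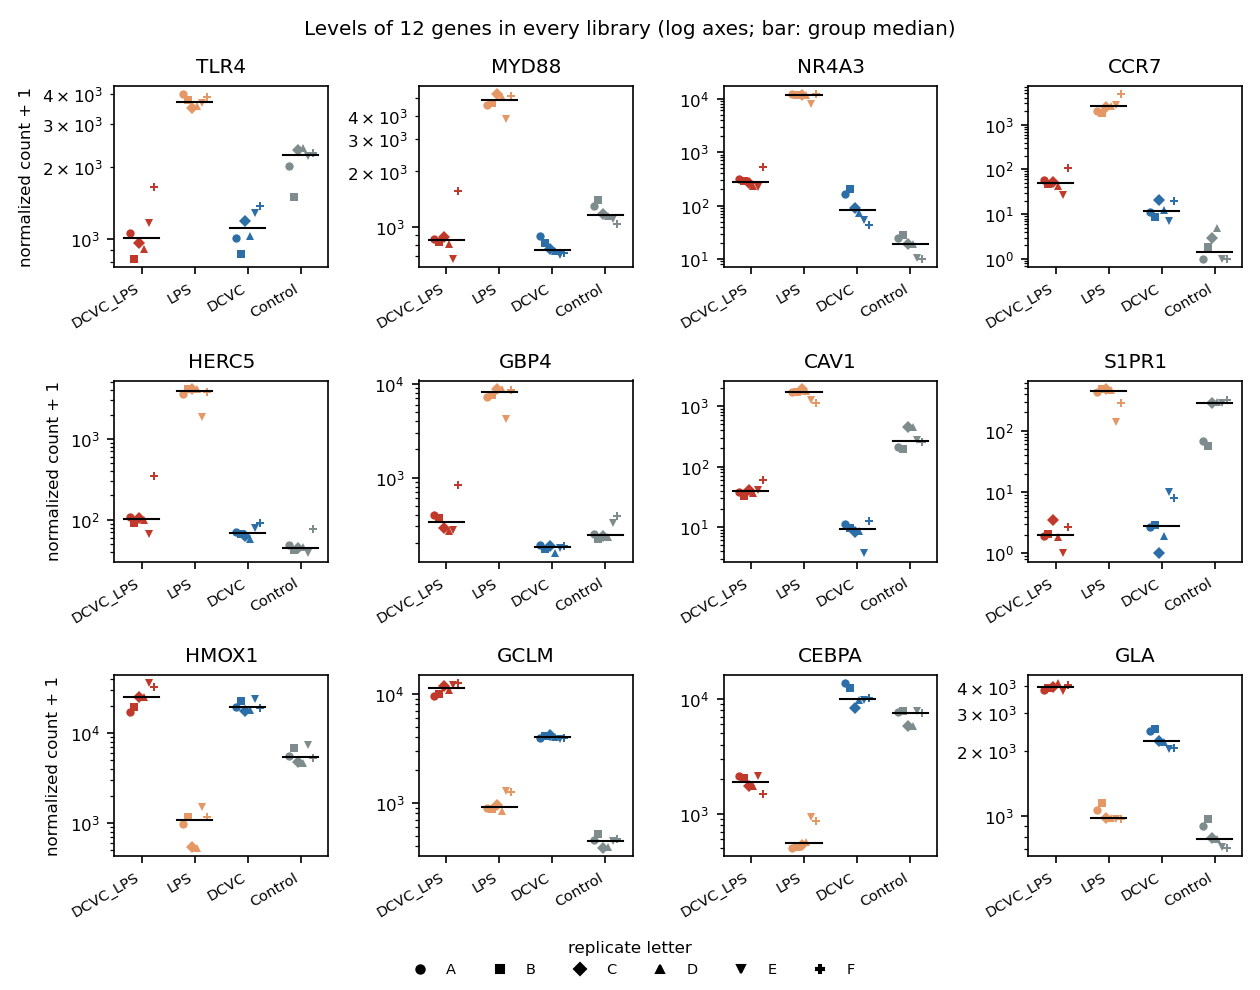
Normalized count + 1 (y axes, log scale) of 12 genes in every library, with the groups DCVC_LPS, LPS, DCVC and Control from left to right, a marker shape for each replicate letter and a bar at the group median. In 8 genes, from TLR4 to S1PR1, all DCVC_LPS libraries lie below all LPS libraries, and in HMOX1, GCLM, CEBPA and GLA all lie above.

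Genes of costimulation and maturation fell, and those of antigen presentation were split. Of 19 costimulation and maturation genes 18 fell and none rose, with a median of -1.77; with equal totals 14 fell and 1 rose. CCR7, the receptor that guides mature antigen-presenting cells to lymph nodes, had 25.5, 49.6 and 107 in DCVC_LPS cells, against 1804, 2570.2 and 4798 in LPS cells, with a log2 change of -5.69 ± 0.38 and an adjusted p of 2.24e-12. Without LPS it had 6.22, 10.9 and 19.5 in DCVC cells, against 0, 0.427 and 3.81 in Control cells (2.85 ± 0.38, adjusted p = 6.83e-07). SLAMF7, a self-ligand receptor of activated macrophages, had 2664, 3228 and 4229 in DCVC_LPS cells, against 14093, 18312 and 19339 in LPS cells, with a change of -2.45 ± 0.16. ICOSLG, the ligand of the T-cell receptor ICOS, changed by -1.88 ± 0.14 with LPS and -1.62 ± 0.14 without. In the MHC class I list 13 of 18 fell and 2 rose, but with equal totals 7 fell and 4 rose. NLRC5, the activator of class I genes, fell by 2.18 log2 units (adjusted p = 1.73e-11). In the class II list 4 of 11 rose and 3 fell (7 rose and 2 fell with equal totals). HLA-DMA, the peptide loader of class II, had 79.3, 106 and 114 in DCVC_LPS cells, against 31.1, 56.2 and 68.3 in LPS cells and a change of 1.04 ± 0.17 (adjusted p = 8.71e-06), without overlap; within letters E/F alone its adjusted p was 0.0953.

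Adhesion and matrix genes fell with and without LPS. Of 26 adhesion molecules and integrins 18 fell and 1 rose (13 and 4 with equal totals). Of 20 genes of extracellular matrix, caveolae and matricellular proteins 17 fell, 16 of them at least 2-fold, and 1 rose (15 and 1 with equal totals). Without LPS 19 of the 26 and 15 of the 20 were lower (18 and 13 with equal totals). VCAM1 had 0.834, 1.56 and 7.68 in DCVC_LPS cells, against 543, 962 and 1025 in LPS cells, the largest fall among genes with a mean of at least 50 and separate groups, with a log2 change of -8.12 ± 0.49 and an adjusted p of 4.45e-13. CCN2, a matricellular protein also known as CTGF, had 11.7, 22.7 and 71.7 in DCVC_LPS cells, against 2538, 3589 and 9322 in LPS cells, with a change of -7.23 ± 0.43. CAV1, the coat protein of caveolae, had 31.2, 37.9 and 59.7 in DCVC_LPS cells, against 1143, 1715 and 1937 in LPS cells, with a log2 change of -5.27 ± 0.25 and an adjusted p of 7.11e-15, and a change of -5.10 ± 0.25 without LPS. ALCAM, an adhesion molecule of the immunoglobulin family, had 13896, 15365 and 18392 in DCVC_LPS cells, against 50044, 56460 and 64685 in LPS cells and a change of -1.84 ± 0.07. ITGA1, the collagen-binding integrin alpha-1, fell less with LPS (-2.22 ± 0.11) than without (-3.56 ± 0.11), and the difference passed the test (adjusted p = 3.10e-07).

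SELPLG, the ligand of P-selectin through which monocytes roll on endothelium, was the only adhesion gene that rose on the deposited scale, with 299, 493 and 661 in DCVC_LPS cells, against 14.2, 28.3 and 50.3 in LPS cells, with a log2 change of 4.02 ± 0.42 and an adjusted p of 6.01e-09. Its lowest DCVC_LPS value lay far above its highest LPS value. Among 21 metalloproteinases and their inhibitors 16 fell and 1 rose (12 and 2 with equal totals). MMP12, the macrophage elastase, had 31.7, 58.9 and 80.3 in DCVC_LPS cells, against 701, 1016 and 1274 in LPS cells, with a change of -4.12 ± 0.35, without overlap. PLAT, tissue plasminogen activator, had 87.5, 109 and 161 in DCVC_LPS cells, against 1104, 1233 and 1601 in LPS cells, with a change of -3.50 ± 0.24, and its median in Control cells was 3.08. MMP19, a broad-range matrix protease, rose by 1.08 ± 0.34 (adjusted p = 0.00692), with overlapping groups.

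Receptors for small mediators moved in both directions. Of 19 genes of sphingosine 1-phosphate and purine signalling, 11 fell, all of them at least 2-fold, and 4 rose (11 and 6 with equal totals). S1PR1, the receptor through which leukocytes follow sphingosine 1-phosphate, was at or near 0 in DCVC_LPS cells, with 0, 0.994 and 2.51 in DCVC_LPS cells, against 136, 449 and 486 in LPS cells, with a log2 change of -7.44 ± 0.52 and an adjusted p of 6.16e-12. Its median was 1.83 in DCVC cells and 284 in Control cells. SGPP2, a phosphatase that removes sphingosine 1-phosphate, rose, with 226, 323 and 346 in DCVC_LPS cells, against 33.4, 58.8 and 105 in LPS cells, with a change of 2.29 ± 0.28. P2RX7, the ATP-gated channel that triggers the NLRP3 inflammasome, had 551, 610.5 and 1146 in DCVC_LPS cells, against 3634, 5173 and 6079 in LPS cells, with a log2 change of -2.77 ± 0.19 and an adjusted p of 3.25e-12. ADORA2B and ADORA3, a pair of adenosine receptors, moved in opposite directions: ADORA2B changed by -3.18 ± 0.23, whereas ADORA3 had 19.6, 26 and 30.6 in DCVC_LPS cells, against 1.33, 2.77 and 7.12 in LPS cells, with a change of 2.76 ± 0.28. Of 15 prostaglandin and leukotriene genes 10 fell and 1 rose (7 and 4 with equal totals); without the DCVC_LPS library F none rose, and likewise without letter E. PTGER2, a receptor of prostaglandin E2, changed by -3.53 ± 0.23, PTGIR, the prostacyclin receptor, by -4.04 ± 0.33, and ALOX5, the first enzyme of leukotriene synthesis, by -3.40 ± 0.29.

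In the inflammasome list 11 of 17 fell and 2 rose (8 and 4 with equal totals), and without letter E 1 rose. NLRP3, the sensor subunit, had 1909, 2078 and 2875 in DCVC_LPS cells, against 8112, 9088 and 10769 in LPS cells, with a log2 change of -2.07 ± 0.10 and an adjusted p of 7.36e-15. CASP1, the protease that matures IL-1beta, changed by -2.09 ± 0.16, and MEFV, which encodes pyrin, by -3.09 ± 0.24. The values of these 3 genes did not overlap between groups. Among 18 genes of apoptotic cell clearance and Fc receptors, 11 fell and 1 rose (6 and 5 with equal totals). AXL, a receptor tyrosine kinase for dying cells, had 21.7, 45.5 and 103 in DCVC_LPS cells, against 421, 505 and 723 in LPS cells, with a change of -3.60 ± 0.28. Its relative MERTK rose, with 227, 382 and 469 in DCVC_LPS cells, against 85.4, 165 and 221 in LPS cells, with a change of 1.20 ± 0.25. Without LPS its change of -0.42 ± 0.25 did not pass the test (adjusted p = 0.154). The difference between the DCVC effects on MERTK passed the test (adjusted p = 6.59e-04).

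Transcription factors of the myeloid lineage moved in both directions, with 15 of 26 lower and 6 higher (9 and 10 with equal totals). CEBPA, a factor of the myelomonocytic lineage, had 1500.5, 1905 and 2140.5 in DCVC_LPS cells, against 504, 552 and 928 in LPS cells, with a log2 change of 1.57 ± 0.15 and an adjusted p of 1.40e-09, and SPI1, which encodes PU.1, changed by 0.88 ± 0.16. IRF8, which drives macrophage activation genes, fell, with 2222, 3154 and 3984 in DCVC_LPS cells, against 9333, 12364 and 13977 in LPS cells, with a change of -1.92 ± 0.15. The groups were separate for all 3. The difference between the DCVC effects passed the test for CEBPA and SPI1 (adjusted p = 5.79e-04 and 0.00116) and not for IRF8 (0.142).

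NRF2 targets of glutathione and thioredoxin metabolism rose. Of 46 tested, 36 rose, 28 of them at least 2-fold, and 7 fell, with a median of 1.47; with equal totals 39 rose and 4 fell. Without LPS 33 rose and 4 fell (39 and 2 with equal totals). HMOX1, haem oxygenase 1 (chr22:35380361-35394214, plus strand, GENCODE 29 on GRCh38), had 16889, 25049 and 35663 in DCVC_LPS cells, against 526, 1069 and 1496 in LPS cells, with a log2 change of 4.78 ± 0.22 and an adjusted p of 3.30e-15. Its median was 19172 in DCVC cells and 5464 in Control cells, and the difference between the DCVC effects was 2.95 ± 0.31 (adjusted p = 4.75e-08). OSGIN1, a growth inhibitor induced by oxidative stress, had 3899, 4911 and 5332 in DCVC_LPS cells, against 177, 197 and 278 in LPS cells, with a log2 change of 4.49 ± 0.15 and an adjusted p of 1.34e-17.

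GCLM, whose promoter is shown above, had 9587, 11331 and 12486 in DCVC_LPS cells, against 845, 922 and 1287 in LPS cells, with a log2 change of 3.47 ± 0.10 and an adjusted p of 1.36e-18. PIR, an iron-binding nuclear protein, had 821, 833 and 882 in DCVC_LPS cells, against 88.2, 101 and 131 in LPS cells, with a log2 change of 2.99 ± 0.08 and an adjusted p of 1.36e-18. GSR, glutathione reductase, had 12518, 14843 and 15515 in DCVC_LPS cells, against 1988, 2150.3 and 2412 in LPS cells, with a log2 change of 2.73 ± 0.08 and an adjusted p of 4.07e-18. The spread within each group of these 3 genes was small beside the gap between groups. NQO1, a quinone reductase, changed by 2.04 ± 0.13. The members that fell included BLVRA, biliverdin reductase, which acts after haem oxygenase, with 231, 333 and 384 in DCVC_LPS cells, against 901, 1384 and 1689 in LPS cells (adjusted p = 1.73e-12). ABCC4, an exporter of conjugates and cyclic nucleotides, changed by -2.06 ± 0.08. BLVRA was higher with DCVC in the absence of LPS (0.56 ± 0.13, adjusted p = 7.28e-04).

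Enzymes that make and handle cysteine conjugates, the route by which DCVC is formed and activated, rose for 12 of 22 and fell for 3 (16 and 1 with equal totals); with the replicate letters as a block 13 rose and 5 fell. GSTM3, a glutathione transferase, had 663, 725 and 878 in DCVC_LPS cells, against 112, 157 and 225 in LPS cells, with a change of 2.22 ± 0.16, and GSTM4 changed by 1.97 ± 0.14. Genes of the GSTM family are near-identical in places, and how reads with more than 1 hit were counted is not given in the sources used here. FMO4, a flavin monooxygenase, had 245, 274 and 341 in DCVC_LPS cells, against 42.9, 76.4 and 84.1 in LPS cells, with a change of 2.06 ± 0.15. The cysteine conjugate lyases moved in opposite directions. KYAT1 had 24.7, 31 and 42.9 in DCVC_LPS cells, against 8.92, 11.5 and 25.9 in LPS cells, with overlapping groups and a change of 1.23 ± 0.20. KYAT3 had 324, 374 and 441 in DCVC_LPS cells, against 550.2, 639.7 and 761 in LPS cells, with a change of -0.78 ± 0.11. GSTP1, the pi-class transferase, changed by -0.30 ± 0.09 on the deposited scale (adjusted p = 0.00373) and by 0.13 with equal totals (adjusted p = 0.234), a change of sign.

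Metal-binding genes mostly fell. Of 10 metallothionein and zinc genes 8 fell and 1 rose (7 and 1 with equal totals), with a median of -1.32. MT2A, a metal-binding scavenger, had 40.9, 102 and 236 in DCVC_LPS cells, against 871, 1054 and 1538 in LPS cells, with a log2 change of -3.49 ± 0.32 and an adjusted p of 7.36e-10; metallothioneins are close copies of each other, so their counts are uncertain. SLC39A14, a zinc and iron importer, had 4017, 4468 and 5130 in DCVC_LPS cells, against 19970, 30938 and 37493 in LPS cells, and its median in Control cells was 1637. The member that rose was SLC30A1, the zinc exporter of the plasma membrane, with 1467, 1702 and 2552 in DCVC_LPS cells, against 383, 551 and 759.5 in LPS cells, with a change of 1.77 ± 0.15.

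Targets of ATF4, the factor of the amino acid stress response, fell for 23 of 32 and rose for 4 (17 and 9 with equal totals), and 21 of the 32 were lower without LPS (18 with equal totals). MTHFD2, a mitochondrial folate enzyme, had 3411, 3725 and 5078 in DCVC_LPS cells, against 12008, 13550 and 14139 in LPS cells, with a change of -1.76 ± 0.11. SLC7A5, a transporter of large amino acids, changed by -1.61 ± 0.11 with LPS and -1.71 ± 0.11 without. TRIB3, a pseudokinase induced by ATF4 and CHOP, had 222, 292 and 373 in DCVC_LPS cells, against 225, 262 and 355 in LPS cells and did not pass the test (0.09 ± 0.13, adjusted p = 0.561), whereas with equal totals its change of 0.52 did (adjusted p = 8.90e-04). Of 23 genes of the unfolded protein response 7 fell and 4 rose on the deposited scale, and 3 fell and 16 rose with equal totals; with the replicate letters as a block 8 fell and 8 rose. EDEM1, which targets misfolded proteins for degradation, was lower on both scales, at -1.71 ± 0.08. Heat shock genes fell for 15 of 23 and rose for 6 (7 and 9 with equal totals), with DNAJB4, a cochaperone of HSP70, at 555, 629.6 and 736 in DCVC_LPS cells, against 95.5, 129.5 and 159 in LPS cells, with a change of 2.29 ± 0.12.

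Genes of sterol and fatty acid synthesis were mostly higher in DCVC_LPS cells. Of 31 tested, 23 rose, 15 of them at least 2-fold, and 7 fell, with a median of 1.03; with equal totals 25 rose and 5 fell. Without LPS 9 rose and 2 fell (17 and 1 with equal totals). FADS1, a fatty acid desaturase, had 353, 667 and 993 in DCVC_LPS cells, against 90.8, 113 and 159.7 in LPS cells, with a log2 change of 2.37 ± 0.22 and an adjusted p of 8.74e-10. INSIG2, which holds the sterol sensor in the endoplasmic reticulum, had 177, 210.5 and 230.1 in DCVC_LPS cells, against 69.4, 82.2 and 97.4 in LPS cells, with a log2 change of 1.30 ± 0.09 and an adjusted p of 4.07e-12. For both, the difference between the DCVC effects passed the test (adjusted p = 0.00102 and 3.68e-08). STARD4, a cholesterol carrier, fell, with 1372, 1930 and 2526 in DCVC_LPS cells, against 8178, 8796 and 14687 in LPS cells, with a change of -2.39 ± 0.18.

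In energy metabolism the split depended on the scale. Glycolysis and hypoxia genes fell for 19 of 36 and rose for 9 (15 and 15 with equal totals). HK2, the inducible hexokinase, had 1044, 1161 and 1348 in DCVC_LPS cells, against 3856, 5435 and 7116 in LPS cells, with a log2 change of -2.18 ± 0.13 and an adjusted p of 2.33e-13. In the list of the TCA cycle and itaconate 9 of 25 rose and 9 fell (18 and 4 with equal totals). ACOD1, which makes the antimicrobial metabolite itaconate, had 445, 540.3 and 1020.2 in DCVC_LPS cells, against 2119.7, 3829 and 4873 in LPS cells, with a change of -2.62 ± 0.26. IDH1, the cytosolic isocitrate dehydrogenase that supplies NADPH, rose, with 345, 518 and 629 in DCVC_LPS cells, against 72.6, 99.8 and 176 in LPS cells, with a change of 2.26 ± 0.21. Nuclear genes of the respiratory chain rose for 18 of 48 and fell for 7, none of them 2-fold, and with equal totals 43 rose and none fell. Mitochondrially encoded genes fell for 13 of 13 with a median of -0.60, and with equal totals 2 fell and none rose. The share of reads in mitochondrial genes did not differ beyond the spread, at 1.63% to 2.11% in DCVC_LPS libraries against 1.60% to 2.21% in LPS libraries (difference of means -0.00528 percentage points, exact two-sided permutation p = 0.970).

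Lysosomal genes rose for 21 of 40 and fell for 7 (32 and 6 with equal totals). GLA, alpha-galactosidase, had 3804, 3959.5 and 4142 in DCVC_LPS cells, against 961, 979 and 1143 in LPS cells, with a log2 change of 1.97 ± 0.07 and an adjusted p of 5.85e-17. NEU1, the lysosomal sialidase, had 7053, 7399 and 7998 in DCVC_LPS cells, against 2287, 2486 and 2564 in LPS cells, with a log2 change of 1.60 ± 0.06 and an adjusted p of 1.04e-16, and ATP6V1A, the catalytic subunit of the proton pump, changed by 1.59 ± 0.08. The groups did not overlap in any of the 3. Proteasome subunits rose for 20 of 32 and fell for 5, none of them 2-fold, and with equal totals 29 rose and none fell; without LPS 25 rose and 2 fell (30 and 0 with equal totals). PSMC2, an ATPase of the proteasome cap, changed by 0.67 ± 0.05.

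Genes that build ribosomes were lower in DCVC_LPS cells. Of 35 ribosome biogenesis genes 34 fell and none rose, with a median of -0.89; with equal totals 25 fell and 1 rose, and without the LPS library E 34 fell and 1 rose. Without LPS 6 fell and 2 rose, and with equal totals 3 fell and 18 rose. Of all 13900 genes, 4478 fell and 3820 rose without LPS, and with equal totals 2790 and 6412. The difference between the DCVC effects passed the test with a negative sign for 33 (28 with equal totals). Over all 13900 genes it did so for 3297 (2232 with equal totals). NCL, nucleolin, had 23574, 25314 and 29263 in DCVC_LPS cells, against 46990, 54631 and 58207 in LPS cells, with a log2 change of -1.08 ± 0.07 and an adjusted p of 2.55e-12, and FBL, the methyltransferase fibrillarin, had 1839, 1866 and 2205 in DCVC_LPS cells, against 3863, 4322 and 4657 in LPS cells, with a change of -1.17 ± 0.08. Cytosolic ribosomal proteins fell for 43 of 52 on the deposited scale, with a median of -0.38, and with equal totals 2 fell and 6 rose; without LPS 47 fell on the deposited scale and 22 with equal totals.

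Of 37 cell cycle genes 17 fell and 8 rose (8 and 11 with equal totals), and without letter E 5 rose. CDKN2C, an inhibitor of the kinases CDK4 and CDK6, had 3221, 3516 and 3878 in DCVC_LPS cells, against 709.7, 757 and 1225 in LPS cells, with a change of 2.11 ± 0.16, and of 2.07 ± 0.16 without LPS. CCNE2, cyclin E2, changed by -2.73 ± 0.30. Among 25 genes of the p53 response 12 fell and 7 rose (10 and 10 with equal totals). PHLDA3, an inhibitor of AKT, changed by -2.83 ± 0.17, and FDXR, a mitochondrial reductase, by 2.07 ± 0.22. CDKN1A, which encodes p21, had 32967, 35237 and 37103 in DCVC_LPS cells, against 37037, 42370 and 44685 in LPS cells, with a log2 change of -0.25 ± 0.10 and an adjusted p of 0.0376 on the deposited scale and 0.19 (adjusted p = 0.0822) with equal totals. In 11 of the 18 fits without a letter or a library its fall did not pass the test, with an adjusted p of up to 0.0803 without letter A. Of 21 genes of the BCL2 family and caspases 16 fell and 3 rose (12 and 5 with equal totals), with the death inhibitors CFLAR at -1.89 ± 0.12 and BCL2L1 at -1.85 ± 0.09.

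**Figure D3:**
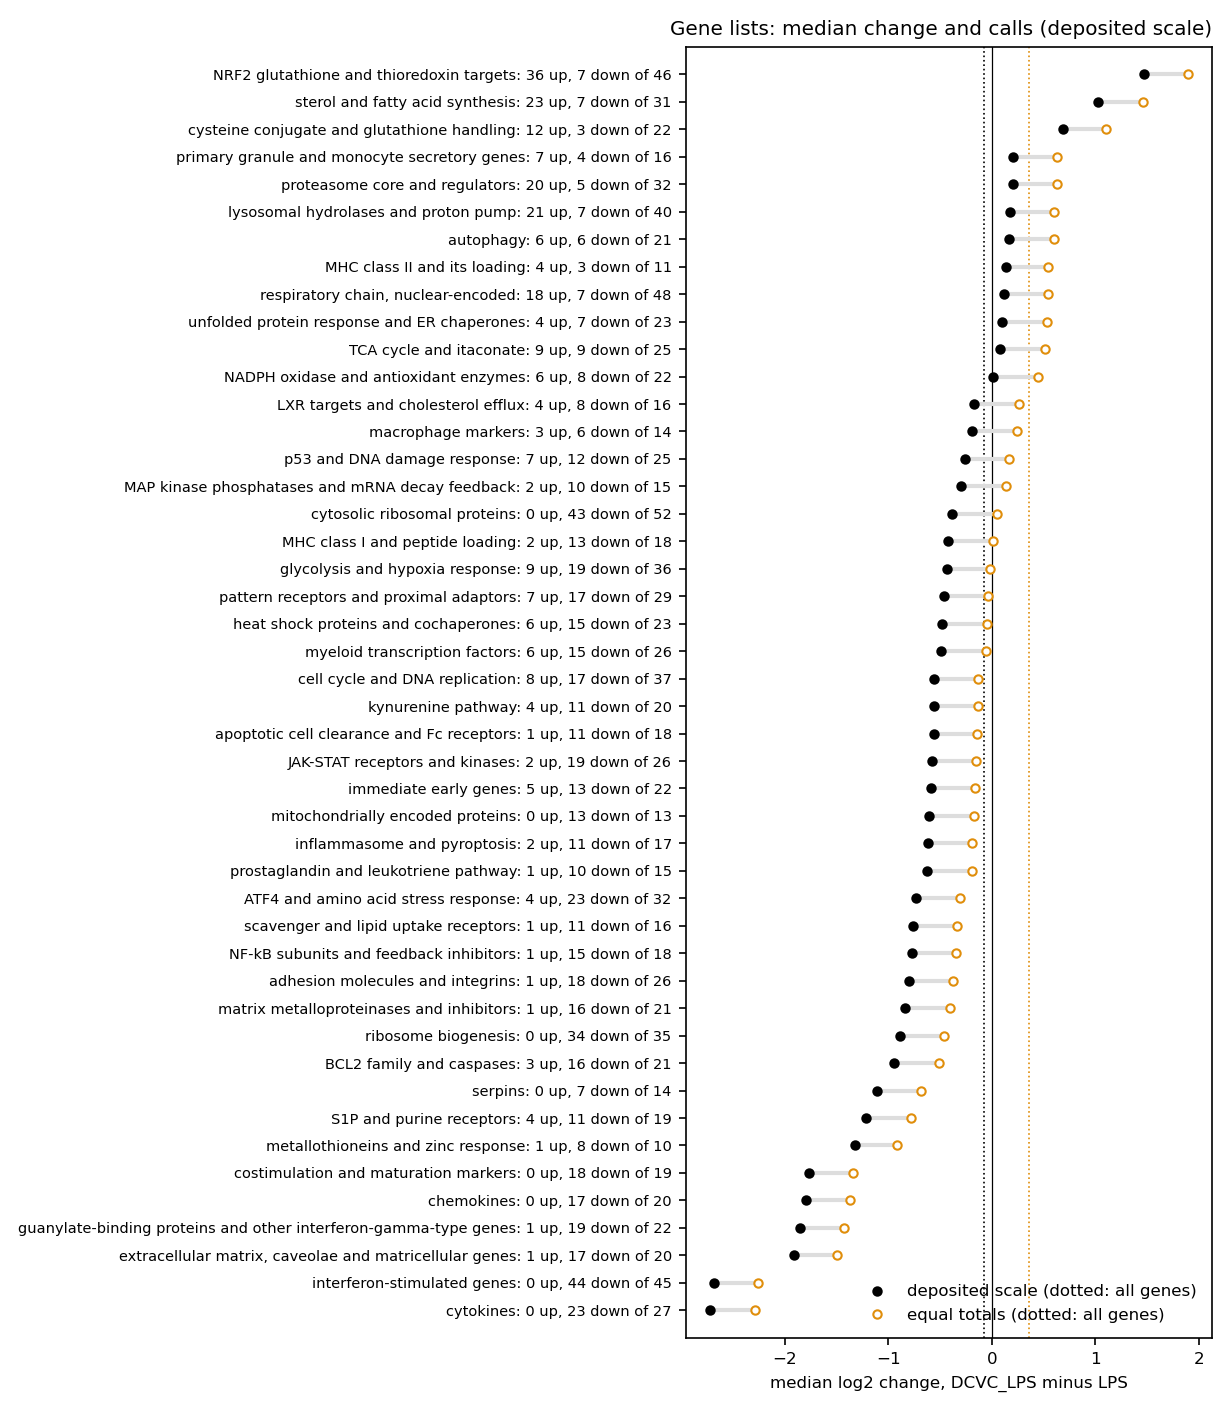
Median log2 change of each gene list, DCVC_LPS minus LPS (x axis), on the deposited scale (filled points) and with equal totals (open points), with the numbers of members raised and lowered on the deposited scale beside each name. Dotted lines mark the medians of all genes, at -0.07 and 0.36. NRF2 targets (median 1.47) and sterol synthesis (1.03) lie at the top, and interferon-stimulated genes (-2.68) and cytokines (-2.72) at the bottom, apart from the medians of all genes on both scales.

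Several of the largest changes lay outside these lists. TREML3P, a pseudogene of the TREM receptor cluster, had the largest rise among genes with a mean of at least 50 and separate groups, with 212, 248 and 376 in DCVC_LPS cells, against 0, 2.01 and 6.94 in LPS cells, with a log2 change of 6.49 ± 0.37 and an adjusted p of 1.81e-13; as a pseudogene it may share reads with its relatives. ZNF365, a zinc finger protein, had 125, 261 and 323 in DCVC_LPS cells, against 1.42, 5.56 and 11.6 in LPS cells. HPD, an enzyme of tyrosine breakdown, changed by 4.02 ± 0.32, and NPR3, the clearance receptor of natriuretic peptides, by 4.01 ± 0.36. DGKG, a diacylglycerol kinase, had 528, 625 and 738 in DCVC_LPS cells, against 26.8, 35.9 and 44.4 in LPS cells, with a log2 change of 4.07 ± 0.15 and an adjusted p of 5.97e-17. DCAF12L2, a relative of a ubiquitin ligase adaptor, had 492, 678 and 730.2 in DCVC_LPS cells, against 26.3, 34.2 and 47.9 in LPS cells, with a change of 4.16 ± 0.18. All 6 had separate groups. At the other end COL10A1, a collagen, had 0, 10.5 and 45.2 in DCVC_LPS cells, against 405, 1145 and 1706 in LPS cells, with a change of -6.90 ± 0.89, and IGFBP5, an insulin-like growth factor binding protein, changed by -5.75 ± 0.50.

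The DCVC effect with LPS was set beside the effect without LPS, measured on the other 12 libraries. Both effects come from the same fit and share its estimates of spread and its filter. Without LPS 3820 genes (27.5%) were raised and 4478 (32.2%) lowered. Of the genes raised with LPS, 2698 were raised without it too, which is 58.2% of the raised genes with LPS and 70.6% of those without. Of the genes lowered with LPS, 3218 were lowered without it, 58.7% and 71.9% of the lists. Opposite calls were rarer, with 321 genes raised with LPS and lowered without, and 415 the reverse. Across the 13900 genes the changes correlated with a Pearson r of 0.694 and a Spearman rho of 0.659, as a description of genes that are not independent. The difference between the DCVC effects passed the test for 3053 genes (22.0%) with a positive and 3297 (23.7%) with a negative sign.

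The 5 largest negative differences were those of CCR7 at -8.54 ± 0.53 (adjusted p = 2.02e-11), NR4A3 at -7.61 ± 0.45 (adjusted p = 1.03e-11), the chemokine CXCL9, the kynurenine enzyme IDO1 and the interleukin subunit IL12B. For CXCL9, IDO1 and IL12B no value is given, since no library without LPS held more than 2.93 normalized counts of them. The largest positive differences were those of RGS4, a regulator of G-protein signalling, at 5.02 ± 0.55, ADRA2B, an adrenergic receptor, at 4.01 ± 0.75, DCAF12L2 at 3.94 ± 0.26, DGKG at 3.31 ± 0.21 and SIT1, an adaptor of lymphocytes, at 3.29 ± 0.49. ADRA2B changed by -2.22 ± 0.53 with LPS and -6.23 ± 0.53 without. RGS4 had medians of 1.69 in DCVC_LPS and 2.62 in LPS cells, and 5.11 in DCVC and 254 in Control cells. Both medians with LPS were near 0, so the RGS4 difference rests on the change without LPS. CCR7 was near 0 in Control cells, so its difference rests in part on such values. SIT1 had at most 4.27 normalized counts in LPS cells, so its difference rests in part on values near 0. For DGKG and DCAF12L2 the rise was larger with LPS, and DCAF12L2 did not pass the test without it (0.22 ± 0.18, adjusted p = 0.301).

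**Figure D4:**
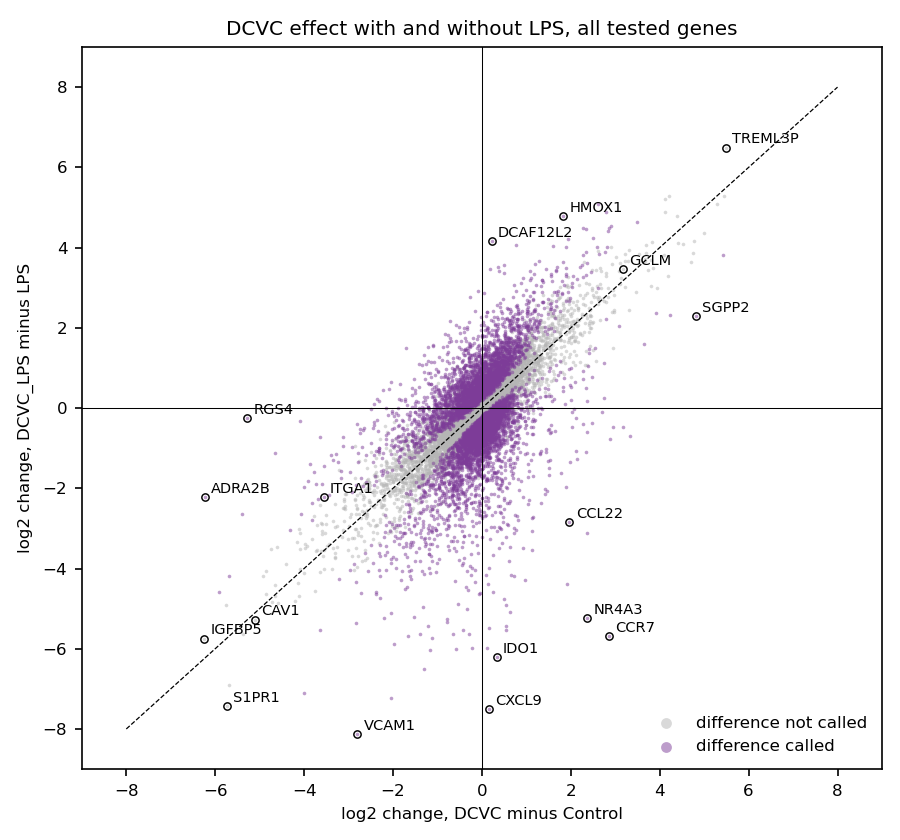
DCVC effect with LPS (y axis, log2 of DCVC_LPS over LPS) against the effect without LPS (x axis, log2 of DCVC over Control) for 13900 genes, with the dashed line at equal effects and purple points where the difference passed the test. GCLM and CAV1 lie near the line, CCR7, NR4A3 and CCL22 were lower with DCVC in the presence of LPS and higher in its absence, and RGS4 was lower with DCVC in its absence.

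The macrophage label was checked against its markers. Of 14 macrophage markers, all tested, 6 fell and 3 rose (3 and 8 with equal totals), and together they held 2606 to 2863 of every 1000000 normalized counts in DCVC_LPS libraries against 2124 to 2334 in LPS libraries (exact two-sided permutation p = 0.00216, the smallest that a free exchange of 6 against 6 libraries can give). With the letters as pairs, an exact permutation within each letter gave p = 0.0312, the smallest that 6 pairs can give. Both permutations count all 6 letters as separate, although libraries A and B resembled each other, as did C and D and, less closely, E and F. These p-values, and those for the lists below, may therefore be too small. Such totals per 1000000 are on the scale of equal totals, and the sums as deposited ran the other way, at 57463 to 62144 in DCVC_LPS libraries against 62113 to 70641 in LPS libraries (exact p = 0.00433). CSF1R, the receptor of macrophage colony-stimulating factor, had 8703, 10768 and 13586 in DCVC_LPS cells, against 6115, 9202 and 13887 in LPS cells, with overlapping groups. The markers ITGAM, FCER1G and CD14 were lower without overlap, and LYZ and SPI1 were higher without overlap. ITGAM had medians of 2550 in DCVC_LPS and 5349 in LPS cells, and FCER1G had 3132 and 6424. LYZ had medians of 3704 in DCVC_LPS and 1730 in LPS cells, and SPI1 had 8394 and 4840. CD68, a usual macrophage marker, was listed at only 19.2, 23.8 and 33.3 in DCVC_LPS cells, against 1.48, 10.7 and 20.7 in LPS cells. Marker lists of other cell types summed to far less. T and NK cell markers held 13.0 to 22.4 counts per 1000000 in DCVC_LPS libraries and 12.1 to 20.1 in LPS libraries (exact p = 0.532). CD2, CD8B and TRBC1 were at 0 in all 12 libraries, but other members moved in opposite directions. NKG7 had medians of 65.7 in DCVC_LPS and 27.7 in LPS cells, GNLY 75.6 and 235, and TRAC 238 and 180. As deposited the sum of this list was lower, with a mean of 385 in DCVC_LPS and 484 in LPS libraries (exact p = 0.0411). B and plasma cell markers held 1.73 to 2.74 counts per 1000000 in DCVC_LPS libraries and 3.35 to 10.0 in LPS libraries (exact p = 0.00216), with IGHM and TNFRSF17 at 0. Within this list PAX5 had medians of 21.0 in DCVC_LPS and 124 in LPS cells, and CD79B had 10.5 and 1.36. Fibroblast and endothelial markers held 22.8 to 30.2 counts per 1000000 in DCVC_LPS libraries and 15.2 to 22.1 in LPS libraries (exact p = 0.00216), but as deposited the sums overlapped, with means of 570 in DCVC_LPS and 574 in LPS libraries (exact p = 0.911). Within this list VWF, von Willebrand factor, had medians of 382 in DCVC_LPS and 118 in LPS cells, and PDGFRA, a growth factor receptor, had medians of 68.9 in DCVC_LPS and 413 in LPS cells. Epithelial markers held 1.78 to 3.74 counts per 1000000 in DCVC_LPS libraries and 1.40 to 2.33 in LPS libraries (exact p = 0.0260, 0.0625 within letters and 0.511 for the sums as deposited), with EPCAM and CDH1 at 0. KRT7 had medians of 41.4 in DCVC_LPS and 16.9 in LPS cells, and MUC1 had 15.2 and 26.0. Neutrophil and mast cell markers held 10.7 to 16.9 counts per 1000000 in DCVC_LPS libraries and 6.93 to 38.8 in LPS libraries (exact p = 0.234), with FCGR3B, CEACAM8 and CPA3 at 0. MMP8 had medians of 30.9 in DCVC_LPS and 383 in LPS cells, and TPSB2 had 190 and 158. What part these lists had in other results was not tested.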

How the data were processed

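RNA of THP-1 cells was sequenced from poly-A libraries, per the labels' protocols. The submitters' processing notes name hg38, STAR, featureCounts 1.6.1, DESeq2 1.24.0, R 3.6.0, FastQC 0.11.5 and MultiQC 0.9, without roles. Which annotation was used, whether counting used strand and how reads with several hits were treated is not given in the sources, so genes with close copies or antisense partners are uncertain. The deposited signal values are normalized counts, in which every value is a whole number of reads (within 0.1 read) times a factor for its library. Of 58381 deposited entries, 33.6% carried no gene name and were left out, and 51 symbols on 2 entries were summed.

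Groups followed the titles. limma 3.58.1 (R 4.3.3) took log2(value + 1) of the 13900 genes whose mean reached 10, in 1 fit of 24 libraries (a mean for each group, 20 residual df, variance trend), with Benjamini-Hochberg adjustment. As the values are no raw counts, count tests on the recovered reads (edgeR 4.0.16 with TMM, DESeq2 1.42.0) were alternatives, beside other pseudocounts and filters, equal totals, subsets of libraries and a replicate block. Marker totals were compared by exact permutation of the libraries and, added after seeing the data, by exchange within letters and as deposited sums. The code was tested on simulated data with 200 changed genes. Precision is limited by 18478618 to 30107819 reads in named genes per library. Intervals of counting error are not given, since the spread between libraries is shown.

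Libraries of the same letter deviated together. The correlations of their deviations from the group means, DCVC_LPS with LPS, were 0.323, 0.349, 0.142, 0.176, 0.370 and 0.337 for A to F. With the LPS library of the other letter of the pair (A/B, C/D or E/F) they were 0.283, 0.326, 0.169, 0.140, 0.214 and 0.0522. Whether single letters or pairs of letters are the units is not settled by these values. Named genes were the 15 largest rises and 15 largest falls with a mean of at least 50 and separate groups, up to 3 raised and 3 lowered members of each list with the smallest adjusted p, the 5 largest differences of the DCVC effects in each direction, and a few fixed genes. CSF1R and some other members of the marker lists are named as markers. A few genes that this rule names are not reported here. The genes and lists were chosen with earlier results of these data known. Promoters came from RefSeq (GRCh38.p14) by symbol, and motifs were searched on both strands with Python 3.11.15.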

Additional observations from a re-analysis of the deposited data

Results flagged for a closer look

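Dixon's test was run on 256 sets of 6 libraries: each group for 126 of the genes described here, the normalized total and the mitochondrial share. In 44 sets 1 library lay apart from the other 5 by a gap above the 95% critical value. Chance gives such a gap in about 1 in 20 sets of independent, normally distributed values. The sets here share the same 12 libraries, some of which resembled each other. That rate therefore cannot tell whether 44 of 256 is an excess. Genes named only as markers, such as CSF1R, ITGAM and PAX5, were not among the 126 and were not checked. The same holds for CXCL9, IDO1 and IL12B, whose differences of the DCVC effects are ranked above. All values are normalized counts. The DCVC_LPS library F was apart as the highest of its group for ACOD1 (1020.2), ATF3 (19176), CAV1 (59.7), CCR7 (107), CXCL10 (635), FBL (2205), GBP4 (840.2), HERC5 (345), IFITM3 (1152), IGFBP5 (5.12), ITGA1 (847), MYD88 (1564), NLRC5 (653), NR4A3 (518), STAT2 (2259), VCAM1 (7.68), WARS1 (3888), VCAN (64), CH25H (34.1) and LRP1 (1698). The DCVC_LPS library E was apart as the lowest of its group for BLVRA (231) and TNIP1 (20320). The DCVC_LPS library B was apart as the highest of its group for IL10 (3.23). The DCVC_LPS library F was apart as the lowest of its group for HLA-DMA (79.3). The LPS library F was apart as the highest of its group for ADORA3 (7.12), ATF3 (6671), CASP1 (2042), CCR7 (4798), CDKN2C (1225), EDEM1 (6904), FDXR (29.9), PTGIR (2043), SIT1 (4.27), VCAN (541) and CH25H (352). The LPS library E was apart as the lowest of its group for GBP4 (4171), HERC5 (1889), JAK2 (2064), NR4A3 (7803) and TNIP1 (40672). The LPS library B was apart as the highest of its group for FADS1 (159.7). The LPS library B was apart as the lowest of its group for TLR5 (1.48). The LPS library C was apart as the highest of its group for KYAT1 (25.9). The LPS library E was apart as the highest of its group for ELANE (1236). The groups were compared with all 6 libraries. Among the 126 genes, CXCL8 and CDKN1A are those whose call was lost when a library or a letter was left out.

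For 89 of these 126 genes the DCVC effect with LPS differed from the DCVC effect without LPS. The test was the interaction term of the limma fit on 24 libraries (adjusted p under 0.05). The values are differences of log2 changes, with LPS minus without. A positive difference was found for 37 genes: RGS4 (5.02), ADRA2B (4.01), DCAF12L2 (3.94), DGKG (3.31), SIT1 (3.29), ADORA3 (3.03), HMOX1 (2.95), IDH1 (1.93), SLC30A1 (1.76), ZFP36L1 (1.76), OSGIN1 (1.63), MERTK (1.62), FOS (1.57), CYP1A1 (1.54), NPR3 (1.42), FADS1 (1.35), ITGA1 (1.34), FDXR (1.28), DNAJB4 (1.26), GSR (1.23), INSIG2 (1.23), HPD (1.21), SPI1 (0.99), CEBPA (0.98), GLRX (0.90), ATF3 (0.87), TIRAP (0.87), GSTM4 (0.86), CD36 (0.82), ATP6V1A (0.82), ATG9A (0.63), TRIB3 (0.60), NPC1 (0.49), GLA (0.48), IRAK4 (0.43), PIR (0.39) and PSMC2 (0.38).

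A negative difference was found for 52 genes: CCR7 (-8.54), NR4A3 (-7.61), IL10 (-5.99), HERC5 (-5.44), VCAM1 (-5.32), CCN2 (-5.17), CCL22 (-4.81), PLAT (-3.90), GBP4 (-3.71), CXCL10 (-3.07), MT2A (-2.87), SLAMF7 (-2.85), BLVRA (-2.56), SGPP2 (-2.52), P2RX7 (-2.32), CXCL8 (-2.30), ACOD1 (-2.28), RIPK2 (-2.13), HK2 (-2.12), STAT2 (-2.11), SERPINB1 (-2.06), MEFV (-1.96), WARS1 (-1.94), PTGIR (-1.88), MYD88 (-1.78), IFITM3 (-1.67), CASP1 (-1.67), STARD4 (-1.59), NLRC5 (-1.52), JAK2 (-1.49), CFLAR (-1.45), EDEM1 (-1.41), RUBCN (-1.34), ADORA2B (-1.22), BCL2L1 (-1.13), ABCC4 (-1.12), CCNE2 (-1.10), SLC39A14 (-1.03), DUSP2 (-0.99), NCL (-0.98), NFKBIA (-0.98), AXL (-0.98), TNIP1 (-0.96), TLR4 (-0.90), PHLDA3 (-0.74), REL (-0.62), NFKB1 (-0.59), GSTM3 (-0.57), MTHFD2 (-0.54), FBL (-0.49), NLRP3 (-0.44) and KYAT3 (-0.44). IL10 and ACOD1 were at or near 0 in all libraries without LPS, so their differences rest on the change with LPS. The RGS4 medians with LPS were near 0, so its positive difference rests on the change without LPS. The background is 22.0% of all tested genes with a positive and 23.7% with a negative difference. The described genes were chosen in part by this difference and by the change with LPS, which is part of it. Their higher share is therefore no result.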

How the results depend on the processing

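With equal totals in place of the deposited scale, 7578 genes were raised and 3051 lowered with LPS, 2985 and 1345 of them at least 2-fold. Without LPS 6412 genes were raised and 2790 lowered on that scale, and 4600 genes had a positive and 2232 a negative difference of the DCVC effects. GSTP1 (0.13) and CDKN1A (0.19) changed sign on that scale, and the cause was not tested. The numbers raised at least 2-fold were 2695 with no filter on low values and 980 with a mean of at least 50, as more and fewer genes were tested. With the replicate letters as a block, 5015 genes were raised and 5944 lowered. Beside the list counts given above, the block ended no call among the 126 genes checked. By edgeR 4443 genes were raised and 5653 lowered, and by DESeq2 4716 and 5441. Leaving out letters or single libraries gave 4318 to 4611 raised and 5201 to 5431 lowered genes with LPS. At least 2-fold, these were 1603 to 1707 and 2127 to 2223. Without LPS they were 3338 to 3727 raised and 4018 to 4408 lowered, and 2434 to 3116 positive and 2813 to 3328 negative differences. Of the 126 genes checked, 124 were called. Of 3959 alternative tests of these 124 genes, 37 lost the call or its sign, in 7 genes: CD68, CDKN1A, CXCL8, GSTP1, HLA-DMA, IKBKG and NFKBIA. At least 4-fold in place of 2-fold, the ISRE core was present in 9.55% of raised and 11.2% of lowered windows, and the antioxidant response element in 19.4% and 13.3%. As sums of deposited counts in place of totals per 1000000, chosen after seeing the data, the differences DCVC_LPS minus LPS of the marker lists changed sign for macrophages (-5288), T and NK cells (-99.2) and fibroblasts and endothelium (-4.91), because the deposited totals differ between the groups. Genes near the mean of 10 rest on few reads.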

Other observations

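Transcripts of a pair of granule proteases, ELANE and CTSG, were higher in DCVC_LPS cells. In the list of primary granule and monocyte secretory genes 7 of 16 rose and 4 fell (10 and 3 with equal totals), and 9 rose and 5 fell without LPS (9 and 4 with equal totals). ELANE, neutrophil elastase, had 1352, 2066 and 2738 in DCVC_LPS cells, against 711, 817 and 1236 in LPS cells, with a log2 change of 1.22 ± 0.20 and an adjusted p of 6.48e-06. CTSG, cathepsin G, had 288, 833 and 1118 in DCVC_LPS cells, against 158, 244 and 306 in LPS cells, with overlapping groups and a log2 change of 1.65 ± 0.30 and an adjusted p of 2.79e-05. VCAN, a proteoglycan of monocytes, fell, with 11, 19.1 and 64 in DCVC_LPS cells, against 126, 193 and 541 in LPS cells and a change of -3.27 ± 0.48. Among scavenger and lipid uptake receptors 11 of 16 fell and 1 rose (8 and 3 with equal totals, and 2 rose without the DCVC_LPS library F or with the letters as a block). LRP1, a receptor for lipoproteins and proteases, changed by -1.46 ± 0.13, and CD36, which takes up oxidised lipids, by -1.03 ± 0.15.

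Genes of LXR and cholesterol efflux rose for 4 of 16 and fell for 8, and with equal totals 7 rose and 2 fell. NPC1, which moves cholesterol out of lysosomes, had 1261, 1545 and 1736 in DCVC_LPS cells, against 589.5, 728 and 844 in LPS cells, with a log2 change of 1.10 ± 0.11 and an adjusted p of 2.91e-09. CH25H, which hydroxylates cholesterol, had 0.913, 5.01 and 34.1 in DCVC_LPS cells, against 150.3, 173 and 352 in LPS cells, with a change of -4.81 ± 0.50. In the kynurenine and aryl hydrocarbon receptor list 4 of 20 rose and 11 fell (8 and 9 with equal totals; 7 and 11 with the letters as a block). CYP1A1, a classic target of the aryl hydrocarbon receptor, had 25.6, 33.5 and 38.4 in DCVC_LPS cells, against 0, 1.31 and 5.7 in LPS cells, with a log2 change of 3.89 ± 0.36 and an adjusted p of 9.16e-10, while AHRR, the repressor of that receptor, had 2467, 2607 and 2827 in DCVC_LPS cells, against 3866, 4329 and 4507 in LPS cells and a change of -0.71 ± 0.06. Autophagy genes rose for 6 of 21 and fell for 6 (17 and 3 with equal totals). RUBCN, a negative regulator of autophagy, changed by -1.42 ± 0.09 and ATG9A, a membrane protein of the early autophagosome, by 0.90 ± 0.11. The DCVC effects with and without LPS differed by the interaction test for both (adjusted p = 5.12e-09 and 0.00266). Of 22 genes of the NADPH oxidase and antioxidant enzymes 6 rose and 8 fell (13 and 2 with equal totals). GLRX, glutaredoxin, had 341, 553 and 772 in DCVC_LPS cells, against 96.1, 127 and 144 in LPS cells, with a log2 change of 2.20 ± 0.19 and an adjusted p of 3.28e-10, and CYBA, the p22 subunit of the oxidase, changed by -0.81 ± 0.11. Among 14 serpins 7 fell and none rose (7 and 3 with equal totals), and 1 rose without the DCVC_LPS library F or with the letters as a block. SERPINB1, an inhibitor of granule proteases, had 262, 298 and 323 in DCVC_LPS cells, against 1039.5, 1170 and 2429 in LPS cells, with a log2 change of -2.20 ± 0.15 and an adjusted p of 3.36e-12.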
